A study of Rattus norvegicus with 9 samples.

Results

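The response shared by all clamped lungs of a rat model of lung ischemia-reperfusion injury was measured by pooling the 6 clamped and reperfused libraries and comparing them with the 3 sham libraries, so all 9 libraries of the series entered. Of 22833 genes in the deposited table, the 15402 with a mean of at least 0.5 FPKM over the 9 libraries were tested. FPKM is a level of fragments scaled for the length of the transcript and the size of the library, so levels can be compared between genes. The animals were male Sprague-Dawley rats, 8 weeks old and specific pathogen free, under urethane anesthesia and heparin, ventilated through the trachea and opened at the left chest. In the Sham group (3 libraries) the left pulmonary hilum was isolated and not clamped. In the IR group (3 libraries) it was clamped for 30 min and the lung was reperfused for 2 h. In the I-post C group (3 libraries), ischemic post-conditioning added 3 cycles of 30 s of renewed ischemia and 30 s of reperfusion before the 2 h of reperfusion. All groups shared the anesthesia, the heparin, the ventilation and the thoracotomy, so the comparison holds what the clamp added to that surgery. Clamping and reperfusion always came together and cannot be told apart. The RNA is that of whole lung tissue, in which a change in the number of cells of a type and a change of RNA per cell cannot be told apart either. The labels give each library as a separate sample, but how the sequenced rats were drawn from each group is not stated, and p-values measure the spread between these samples.

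When blood returns to a lung that has been without flow, endothelial cells, resident macrophages and epithelial cells meet oxidants, stretch and products of injured cells. Within minutes to hours such signals reach Toll-like receptors and MAP kinases, which switch on immediate-early transcription factors and NF-kB, and these drive genes for cytokines, chemokines, clotting factors and matrix enzymes. The same wave switches on its own brakes, among them NF-kB inhibitors, MAP kinase phosphatases and proteins that destroy inflammatory mRNA. Chemokines then draw neutrophils from the blood into the lung.

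Total counts ran from 45110590 (IR 1) to 51214941 (Sham 1), and 18446 to 19602 genes had a count. Lung identity was clear, since markers of alveolar type 2 cells summed to between 22591 and 45360 FPKM in each library. A pair of libraries stood apart. The first principal component, with 39.3% of the variance, set Sham 3 (101) apart from the other 8 libraries (-38.2 to 15.3), and the second, with 21.5%, set IR 3 (70.8) apart from the others (-41.1 to 14.5). In the paper's sequencing summary, Sham 3 had the highest GC content and the lowest share of uniquely mapped reads of all libraries. The part of this in its levels was not tested. IR 3 also held skeletal muscle transcripts, with a marker sum of 4413 FPKM against 12.6 to 79.7 in the other libraries. For several named genes in which Sham 3 or IR 3 stood far from the others, though not for all, the log2FC without that library is given. It stands with the gene or with the values singled out in the closing section.

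Pfkfb3, Tlr2 and Depp1 were the only genes that passed the test in the pooled comparison, and each rose in the clamped lungs. The test was edgeR's quasi-likelihood test with Benjamini-Hochberg adjustment over all 15402 genes, two-sided, and a differentially expressed gene (DEG) needed both a log2FC of 1 or more in size and an adjusted p below 0.05. The 3 higher DEGs were 0.0195% of the genes tested, and the 0 lower DEGs were 0%. At an unadjusted p under 0.05, 954 genes were higher (6.19%) and 1073 lower (6.97%). DESeq2 on the same counts and design called 216 genes higher (1.4%) and 72 lower (0.467%), all 3 edgeR calls among them. The count of calls moved with single libraries, since edgeR called 255 higher and 218 lower without Sham 1, 50 and 2 without I-post C 3, 10 and 0 without IR 3, and 0 in each direction without Sham 2, without Sham 3, without IR 2 or without I-post C 1.

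With so few calls, the levels themselves carry most of the description. In 416 genes (2.7% of those tested) all 6 clamped libraries lay above all 3 Sham libraries in FPKM, and in 417 (2.71%) all 6 lay below. The balance depends on the scaling, since on counts scaled by TMM 544 genes lay above and 273 below. Asking in addition for a log2FC of at least 1 in size left 219 genes above (1.42%) and 77 below (0.5%), and these are called here genes without overlap. This rule was set after the values were seen and uses the same libraries, so it describes the genes and is no test of them. DESeq2 called 166 of the 219 higher genes and 37 of the 77 lower genes. Under edgeR, 47 of the 219 and 2 of the 77 had an adjusted p under 0.1, against 58 of all genes (0.377%). The median log2FC of all genes tested was -0.02, which is the level against which the medians of gene lists are given.

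**Figure D1:**
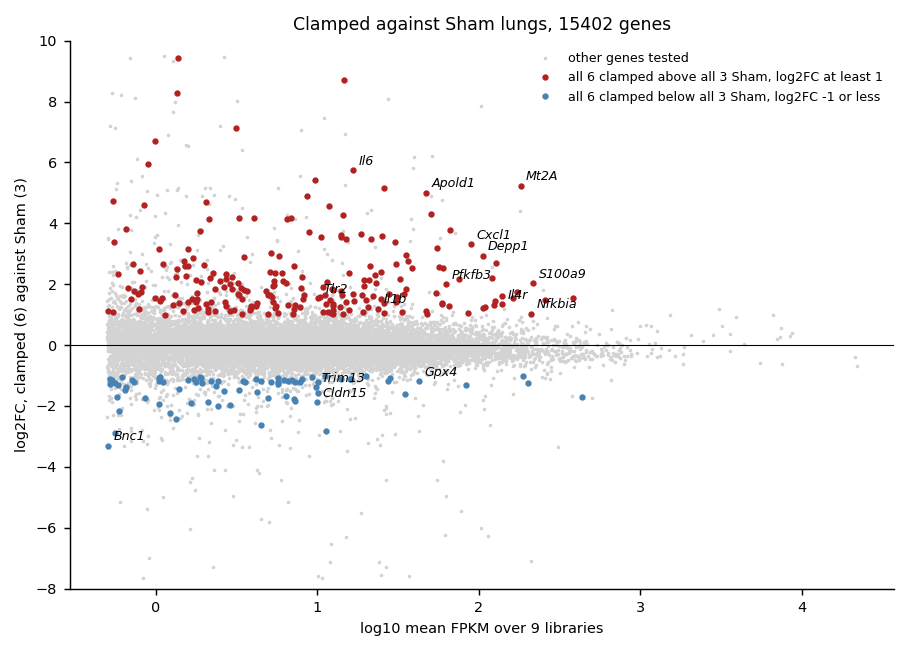
Each point is 1 of the 15402 genes tested, with log10 of the mean FPKM over the 9 libraries on the x axis and the log2FC of the 6 clamped against the 3 Sham libraries on the y axis (6 genes lie outside the y range). The 219 red genes and the 77 blue genes had no overlap between clamped and Sham libraries and a log2FC of 1 or more in size, and Depp1, Pfkfb3 and Tlr2, the 3 DEGs, are among the labelled red genes.

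Pfkfb3 encodes a bifunctional enzyme that makes fructose 2,6-bisphosphate, the strongest activator of glycolytic flux, and lies at 70684134 to 70711224 on chromosome 17 of the rn6 build. Its level was 21.2, 24.1 and 18.0 FPKM in the Sham libraries, 73.4, 73.3 and 92.7 in IR and 113, 81.1 and 71.4 in I-post C. The mean was 21.1 ± 3.02 FPKM (SD, n = 3) in Sham and 84.1 ± 16.0 FPKM (SD, n = 6) in clamped lungs. The groups did not overlap, and the lowest clamped library stood well above the highest Sham library, at a log2FC of 2.00 (SE 0.22, edgeR adjusted p = 0.0255). Depp1, a FOXO target linked to autophagy and induced by fasting and glucocorticoids (chromosome 4, 148782479 to 148784562), had the largest difference of the 3. It measured 16.2, 17.9 and 23.5 FPKM in Sham, 235, 193 and 96.1 in IR and 149, 117 and 104 in I-post C, a log2FC of 2.93 (SE 0.34, edgeR adjusted p = 0.0255). Tlr2, the Toll-like receptor for bacterial lipoproteins that also answers products of injured tissue (chromosome 2, 182840727 to 182846061), was lower in level than the other DEGs. It measured 5.81, 4.24 and 3.47 FPKM in Sham, 12.3, 13.9 and 10.1 in IR and 13.1, 15.8 and 12.6 in I-post C, a log2FC of 1.54 (SE 0.17, edgeR adjusted p = 0.0255). Each clamped library lay above each Sham library in these genes too. DESeq2 gave adjusted p-values of 1.34e-16 for Pfkfb3, 2.07e-16 for Depp1 and 1.49e-17 for Tlr2. The edgeR calls were lost without Sham 2, Sham 3, IR 2 or I-post C 1 alone, with Sham 3 and IR 3 left out together, and with the replicate number as a block, and that of Tlr2 also without I-post C 2, at an adjusted p of at most 0.101, while the log2FC stayed between 1.81 and 2.13 for Pfkfb3, between 2.75 and 3.22 for Depp1 and between 1.35 and 1.65 for Tlr2 over the 20 alternatives.

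A further 9 genes shared the next adjusted p of 0.0501 and so lay just outside the threshold: Il6r, Arid5a, Rasd1, Adamts1, Errfi1, Adamts4, Snx18, Fosl2 and Chst3. Chst3, a chondroitin 6-O-sulfotransferase, also fell short of the fold limit at a log2FC of 0.89. Arid5a, an RNA-binding protein that stabilizes Il6 mRNA, measured 6.72, 5.33 and 7.58 FPKM in Sham, 24.6, 43.7 and 41.3 in IR and 40.1, 21.1 and 34.1 in I-post C. Il6r, the ligand-binding receptor chain for IL-6, measured 15.7, 12.6 and 9.39 FPKM in Sham, 32.6, 36.6 and 34.0 in IR and 28.5, 35.9 and 26.7 in I-post C. In both genes every clamped library was higher than every Sham library, and IR and I-post C overlapped. Errfi1, a feedback inhibitor of the EGF receptor, measured 37.7, 36.3 and 30.8 FPKM in Sham, 203, 151 and 131 in IR and 257, 157 and 78.1 in I-post C. Rasd1, a small GTPase induced by dexamethasone, measured 1.20, 1.52 and 2.03 FPKM in Sham and 4.72 to 10.4 in clamped lungs. Snx18, a membrane-remodeling sorting nexin, measured 7.76 to 13.8 FPKM in Sham and 19.4 to 26.4 in clamped lungs. These 3 genes also showed no overlap, with I-post C 3 the lowest clamped library in each. Edn1, which encodes the vasoconstrictor endothelin-1, came next at an adjusted p of 0.0532, with 26.6, 24.7 and 16.5 FPKM in Sham, 170, 118 and 52.6 in IR and 81.8, 112 and 76.7 in I-post C.

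**Figure D2:**
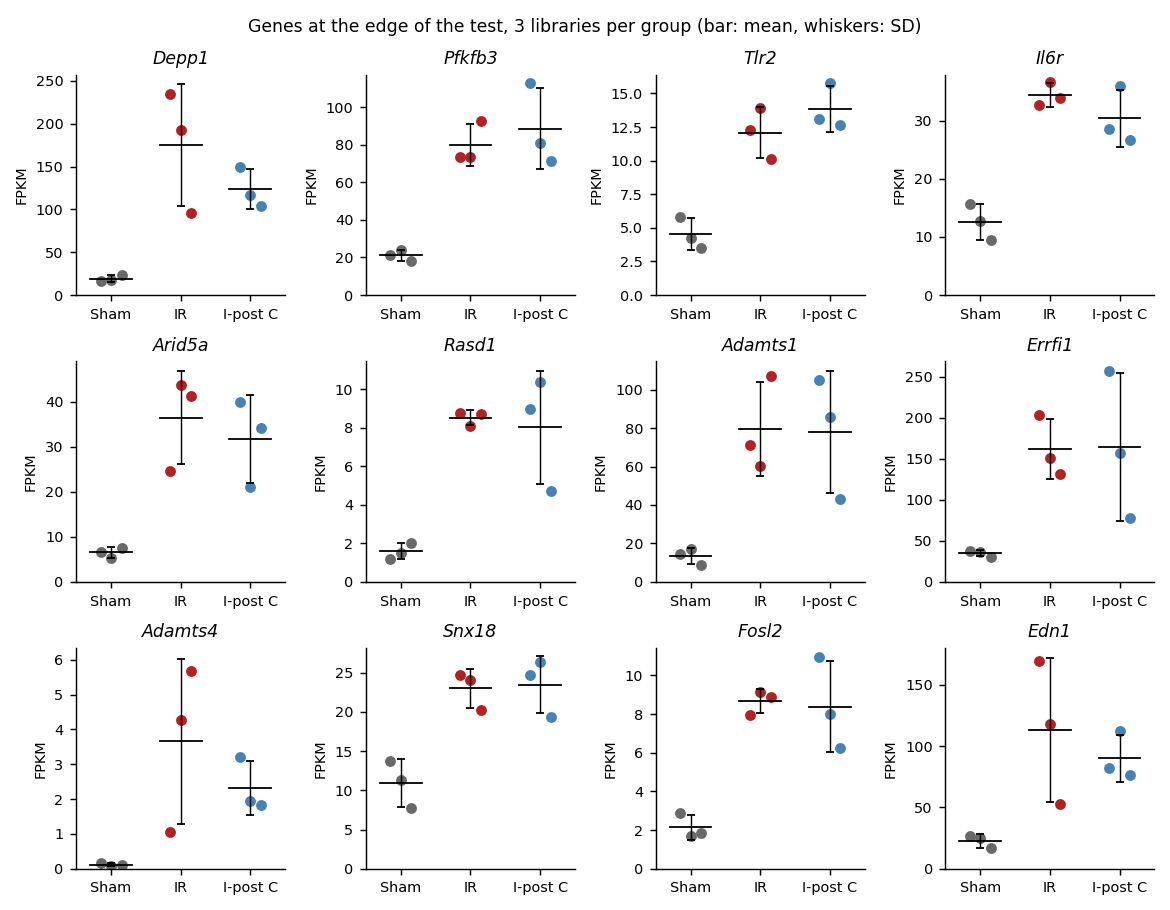
Each panel shows the FPKM of 1 gene on the y axis, with 1 point per library for Sham, IR and I-post C, a bar at the mean of each group and whiskers of 1 SD (n = 3). Depp1, Pfkfb3 and Tlr2 passed the test and the other genes lay just outside it, and in every panel all 6 clamped libraries lie above all 3 Sham libraries.

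Promoters of 6 genes without overlap are shown because their gene products belong to the cytokine, chemokine, NF-kB and matrix groups described next. A further reason was that their proximal promoters hold short AP-1, CRE, NF-kB or C/EBP motifs. Each is the 250 bases before the transcription start in RefSeq's GRCr8 annotation, 5′ to 3′ on the gene's own strand, and capitals mark matches to AP-1 (TGANTCA), CRE (TGACGTCA), NF-kB (GGNNTTTCC) and C/EBP (TTGCNNCAA) on either strand.
Il6 (chr4:5894576-5894825, minus strand): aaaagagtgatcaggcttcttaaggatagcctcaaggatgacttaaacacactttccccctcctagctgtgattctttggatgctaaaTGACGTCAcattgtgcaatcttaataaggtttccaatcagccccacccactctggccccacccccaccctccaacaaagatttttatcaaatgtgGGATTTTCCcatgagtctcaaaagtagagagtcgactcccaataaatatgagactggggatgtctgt
Cxcl1 (chr14:17479322-17479571, minus strand): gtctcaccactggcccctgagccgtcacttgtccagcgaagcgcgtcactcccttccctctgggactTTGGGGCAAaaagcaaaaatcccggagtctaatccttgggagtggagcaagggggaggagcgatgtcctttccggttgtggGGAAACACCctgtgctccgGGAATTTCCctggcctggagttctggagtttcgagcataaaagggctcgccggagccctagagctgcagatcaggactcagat
Cxcl2 (chr14:17467256-17467505, minus strand): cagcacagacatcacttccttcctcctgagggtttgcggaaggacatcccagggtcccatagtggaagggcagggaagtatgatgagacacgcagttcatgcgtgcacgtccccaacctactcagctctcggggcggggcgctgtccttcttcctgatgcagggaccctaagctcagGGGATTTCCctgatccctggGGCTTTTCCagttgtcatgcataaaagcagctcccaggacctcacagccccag
Nfkbia (chr6:78597073-78597322, minus strand): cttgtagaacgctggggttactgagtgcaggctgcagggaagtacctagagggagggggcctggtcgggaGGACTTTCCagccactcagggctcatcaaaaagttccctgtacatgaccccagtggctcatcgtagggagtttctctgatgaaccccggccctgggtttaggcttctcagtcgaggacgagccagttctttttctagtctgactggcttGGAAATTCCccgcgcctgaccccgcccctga
Il1a (chr3:136990018-136990267, minus strand): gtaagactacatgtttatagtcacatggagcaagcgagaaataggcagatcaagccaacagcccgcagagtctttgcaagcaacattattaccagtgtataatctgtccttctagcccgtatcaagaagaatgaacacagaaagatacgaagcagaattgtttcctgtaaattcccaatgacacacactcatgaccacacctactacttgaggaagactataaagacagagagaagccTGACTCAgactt
Tfpi2 (chr4:32941277-32941526, minus strand): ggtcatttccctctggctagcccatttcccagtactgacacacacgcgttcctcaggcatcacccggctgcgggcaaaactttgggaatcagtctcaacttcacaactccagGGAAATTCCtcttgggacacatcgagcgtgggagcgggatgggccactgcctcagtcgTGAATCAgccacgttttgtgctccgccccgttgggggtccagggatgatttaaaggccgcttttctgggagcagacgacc
The Il6 window held a CRE match starting at -162 and an NF-kB match at -67, counted from the transcription start. Cxcl1 held a C/EBP match at -183 and NF-kB matches at -102 and -83, Cxcl2 held NF-kB matches at -73 and -53, and Nfkbia held NF-kB matches at -180 and -31. Il1a held an AP-1 match at -12, and Tfpi2 held an NF-kB match at -138 and an AP-1 match at -80. Among the 10426 promoter windows of genes tested, 4.58% held the AP-1 letters, 2.71% the CRE letters, 5.62% the NF-kB letters, 1.62% the C/EBP letters and 3.23% the HIF letters (TACGTG). The 6 windows shown were chosen in part because they hold motifs, so they cannot be compared with these shares. The windows of Pfkfb3, Tlr2 and Depp1 held none of the 5 motifs in exactly these letters. Looser forms of the motifs were not searched, so their absence is not shown. A check over all 219 higher genes was void, because only 144 of them had a promoter in the table. A match of letters describes the sequence and is not a measured binding site.

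Immediate-early transcription factors, the first genes that kinases switch on without new protein synthesis, had the largest number of members without overlap among the lists, though not the largest share. Of 28 tested, 10 were higher without overlap, 0 were lower and 0 passed edgeR's test, and the median log2FC of the list was 1.38. Fos, which pairs with JUN proteins in AP-1, measured 4.18, 3.67 and 1.44 FPKM in Sham, 28.1, 24.6 and 39.0 in IR and 85.0, 31.7 and 9.05 in I-post C. Fosl2, another AP-1 subunit, measured 2.89, 1.69 and 1.83 FPKM in Sham, 7.95, 9.15 and 8.90 in IR and 10.9, 8.00 and 6.23 in I-post C. Clamped and Sham libraries did not overlap in either gene, and the range among clamped libraries was much wider for Fos. The orphan nuclear receptor Nr4a1 ran from 9.66 FPKM in I-post C 3 to 236 in I-post C 1, against 7.56 to 9.22 in Sham, so it was barely separated at its lowest library. Nr4a2, Nr4a3, Fosl1, Myc, Maff, Btg2 and Csrnp1 were the other members without overlap, at log2FCs of 1.27 (Myc) to 4.17 (Nr4a3). Atf3 (log2FC 3.41) and Egr1 (log2FC 3.82) overlapped through I-post C 3, where Atf3 measured 4.75 FPKM against 3.97 to 5.37 in Sham and Egr1 measured 6.50 against 1.25 to 6.83. Of the 28, 6 had a log2FC below 0, and each of these overlapped between Sham and clamped lungs. They were Klf2 (-4.45, SE 1.23), Jund (-2.25, SE 0.80), Ier2 (-0.93), Junb (-0.74), Ier5 (-0.68) and Ier5l. Means were 72.8 FPKM in Sham and 3.53 in clamped lungs for Klf2, and 55.5 and 12.4 for Jund. In both, the lowest Sham library was no higher than the highest clamped library, so these folds do not hold for every Sham library. DESeq2 gave neither gene an adjusted p. Ier5l had means of 2.46 FPKM in Sham and 0.00973 in clamped lungs, so no fold is given. In Junb, Sham 3 measured 64.5 FPKM against 2.35 and 2.87 in the other Sham libraries and 9.49 to 21.7 in clamped lungs. The log2FC of Junb turned to 2.55 without Sham 3.

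Feedback inhibitors of MAP kinases and growth factor receptors had 6 of 18 tested members higher without overlap, 0 lower and a median log2FC of 1.17. Dusp1, the phosphatase that switches off p38 and JNK, measured 73.0, 134 and 131 FPKM in Sham, 420, 318 and 258 in IR and 429, 392 and 144 in I-post C. Rgs1, Rgs2 and Rgs16, which shorten signaling by G proteins, had log2FCs of 2.66, 1.24 and 3.71, and Spry4, an inhibitor of receptor tyrosine kinase signaling, had 1.14. All of these had a higher level in each clamped library than in any Sham library, and the nearest approach was in I-post C 3, where Dusp1 and Rgs1 were lowest among the clamped libraries.

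NF-kB genes without overlap included inhibitors, cofactors and the subunit Rel. Of 20 tested members of the NF-kB list, 6 were higher without overlap, 0 lower and 0 passed edgeR's test, with a median log2FC of 0.76. Nfkbia, which encodes the inhibitor that holds NF-kB in the cytoplasm, measured 94.7, 105 and 167 FPKM in Sham, 301, 316 and 246 in IR and 216, 265 and 183 in I-post C (log2FC 1.04). Map3k8, a kinase that links Toll-like receptors to ERK, measured 10.6, 9.02 and 7.82 FPKM in Sham, 34.3, 29.0 and 28.0 in IR and 19.0, 22.8 and 18.7 in I-post C (log2FC 1.49, edgeR adjusted p = 0.0616). Both were highest in IR and lowest in Sham, with every I-post C library of Map3k8 below every IR library. Birc3, Nfkbiz, Bcl3 and Rel had log2FCs of 2.08, 2.15, 1.84 and 1.80, and in Nfkbiz Sham 3 was at 0.825 FPKM against 10.4 and 8.86 in the other Sham libraries, and its log2FC without Sham 3 was 1.61. Among 12 tested regulators of inflammatory mRNA stability, 2 were higher without overlap and the median log2FC was 0.37. These were Zfp36, the protein tristetraprolin that destroys cytokine mRNA (58.2 to 77.8 FPKM in Sham, 125 to 337 in clamped lungs), and Zc3h12a, the endonuclease Regnase-1 (4.39 to 7.83 FPKM in Sham, 16.2 to 43.3 in clamped lungs).

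Cytokine genes differed widely in how far they lay from Sham. Of 21 tested, 5 were higher without overlap (Il6, Il1a, Il1b, Osm and Tslp), 0 were lower and 0 passed edgeR's test, with a median log2FC of 0.94. Il6, the main inducer of the acute phase response, measured 0.274, 0.959 and 0.194 FPKM in Sham, 15.2, 30.4 and 74.2 in IR and 16.8, 6.15 and 6.29 in I-post C, a log2FC of 5.76 (SE 1.18, edgeR adjusted p = 0.122), or 4.89 without IR 3. Il1a, an alarmin released by injured cells, measured 10.6, 5.91 and 3.28 FPKM in Sham, 72.9, 56.2 and 48.2 in IR and 42.8, 66.9 and 14.1 in I-post C. Il1b, its partner made by myeloid cells, measured 14.5, 12.6 and 11.3 FPKM in Sham, 31.9, 21.1 and 26.9 in IR and 34.6, 36.8 and 24.9 in I-post C. The difference was smallest but most even for Il1b (log2FC 1.20, SE 0.19), and widest and least even for Il6. Tnf overlapped, at 0.862 to 1.25 FPKM in Sham and 1.05 to 3.70 in clamped lungs (log2FC 0.94). Csf3, the gene of the granulocyte growth factor G-CSF, had no count in any Sham library and measured 1.18, 4.42 and 17.9 FPKM in IR and 0.42, 0 and 0.68 in I-post C, so no fold is given.

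Receptors and targets of the IL-6 family had 7 of 17 tested members higher without overlap, 0 lower, and a median log2FC of 0.83. Their share was the largest among the pathway lists (41.2%, against 35.7% of immediate-early factors and 1.42% of all genes tested). The lists were written with earlier results of these data known, and Bcl3 is also on the NF-kB list. The order of the shares is therefore a description only. Besides Il6r, the oncostatin M receptor Osmr measured 0.401 to 3.55 FPKM in Sham and 4.94 to 17.7 in clamped lungs, and its ligand Osm measured 0.768 to 0.976 in Sham and 1.95 to 4.73 in clamped lungs. Socs3, the main feedback inhibitor of STAT3, measured 17.0, 11.3 and 16.2 FPKM in Sham, 55.3, 119 and 126 in IR and 71.0, 44.3 and 82.3 in I-post C, a log2FC of 2.53 (SE 0.42, edgeR adjusted p = 0.0616). Cish, Pim1, Bcl3 and Il4r completed the set, with Il4r the most abundant at 61.7 to 81.6 FPKM in Sham and 147 to 211 in clamped lungs. The ligands Il6 and Osm, the receptor genes Il6r and Osmr and the inhibitor Socs3 were each higher in all 6 clamped libraries than in any Sham library.

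Among 32 tested chemokines, 4 were higher without overlap (Cxcl1, Cxcl2, Ccl2 and Ccl7), 0 were lower and the median log2FC was 0.27. Cxcl1, a neutrophil attractant, measured 9.71, 8.04 and 22.1 FPKM in Sham, 149, 161 and 310 in IR and 74.2, 39.0 and 37.2 in I-post C, a log2FC of 3.31 (SE 0.85, edgeR adjusted p = 0.175). All 3 IR libraries lay above all 3 I-post C libraries, and these lay above Sham. Ccl2, which draws monocytes, measured 3.34, 4.48 and 4.23 FPKM in Sham, 29.5, 53.9 and 260 in IR and 47.6, 23.4 and 25.7 in I-post C, so IR 3 stood far above the rest, and its log2FC of 4.29 was 3.10 without IR 3. Ccl7, a related monocyte attractant, measured 0.775 to 1.71 FPKM in Sham and 7.73 to 43.9 in clamped lungs (log2FC 4.26, edgeR adjusted p = 0.0677), and Cxcl2 measured 0.182 to 0.735 in Sham and 1.76 to 30.0 in clamped lungs. Cxcl6 overlapped, at 0.661, 0.288 and 0.445 FPKM in Sham, 1.35, 2.64 and 11.2 in IR and 0.735, 0.558 and 0.865 in I-post C. Members of these families resemble each other in sequence, and how reads that match several of them were assigned is not stated.

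Innate sensors and neutrophil markers were measured beside the chemokines. Of 21 tested Toll-like receptors and innate sensors, Tlr2 passed the test and Clec4e, a lectin that senses dead cells and mycobacteria, was the other member without overlap (1.91 to 5.79 FPKM in Sham, 8.20 to 22.2 in clamped lungs), with a list median of 0.30. Of 19 tested neutrophil markers, 4 were higher without overlap (S100a9, Mmp8, Il1r2 and Hcar2), 0 were lower, and the median log2FC was 0.99. S100a9, a subunit of calprotectin, measured 53.7, 86.5 and 72.0 FPKM in Sham, 168, 463 and 214 in IR and 138, 103 and 666 in I-post C. Il1r2, the decoy receptor for IL-1, measured 1.31 to 2.07 FPKM in Sham and 5.50 to 42.9 in clamped lungs. IR 2 and I-post C 3 were the highest libraries for S100a9, Il1r2 and Mmp8 alike. The marker sum ran from 312 to 515 FPKM in Sham and from 421 to 1645 in clamped lungs, so the sums overlapped and were highest in I-post C 3 and IR 2. The part of neutrophil number in the cytokine and chemokine values was not tested.

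**Figure D3:**
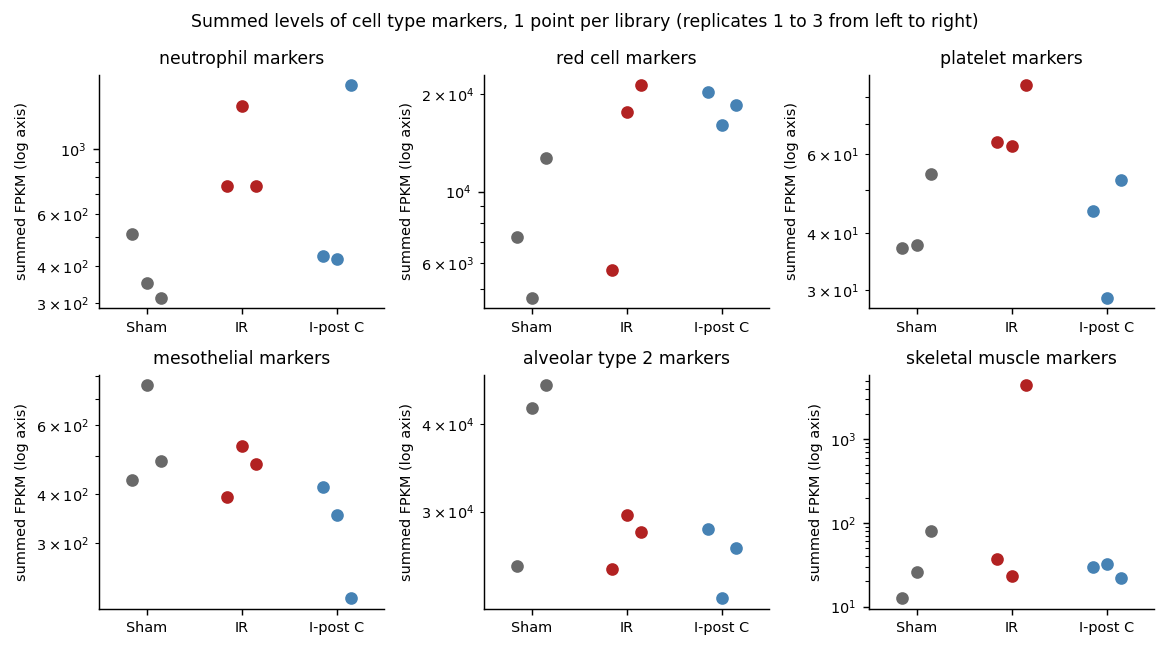
Summed FPKM of the markers of 6 cell types on a log axis, with 1 point per library for Sham, IR and I-post C. Neutrophil sums were 312 to 515 in Sham and 421 to 1645 in clamped libraries, red cell sums overlapped between Sham and clamped libraries, and skeletal muscle markers were high only in IR 3 among the 9 libraries.

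**Figure D4:**
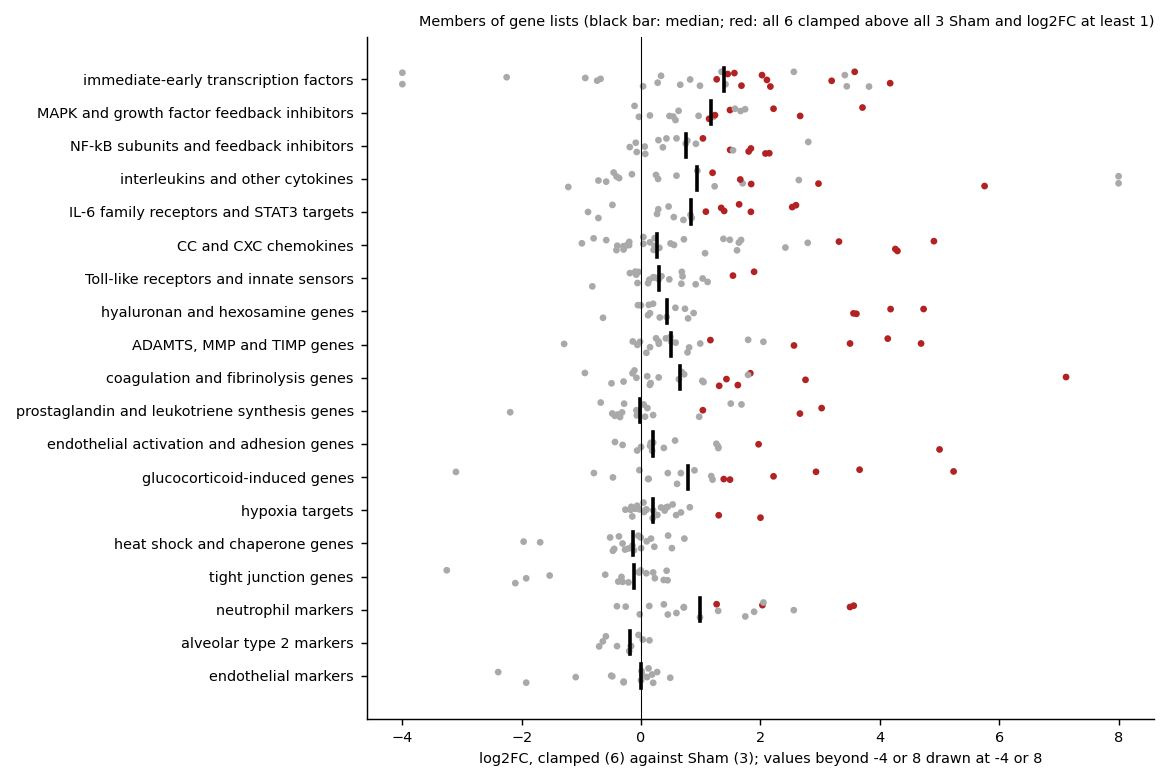
Each point is 1 tested member of a gene list, placed by its log2FC of clamped against Sham libraries, with a black bar at the list's median, and members without overlap and with a log2FC of at least 1 drawn in red. Medians lay at 1.38 for immediate-early factors and 1.17 for feedback inhibitors, and at -0.13 for both heat shock and tight junction genes.

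Genes that build and reshape the pericellular matrix were among those with the largest log2FCs. Of 17 tested hyaluronan and hexosamine genes, 4 were higher without overlap and the median log2FC was 0.43, or 0.23 without Sham 3 and IR 3. Has1, a hyaluronan synthase, measured 0.517, 0.476 and 0.700 FPKM in Sham, 8.22, 17.9 and 18.0 in IR and 9.88, 3.75 and 2.23 in I-post C (log2FC 4.18, SE 0.79). Gfpt2, which supplies the hexosamine precursor, measured 0.890 to 2.33 FPKM in Sham, 21.3 to 53.2 in IR and 4.22 to 11.9 in I-post C, and Tnfaip6, which links hyaluronan to heavy chains of inter-alpha-inhibitor, measured 1.07 to 1.81 in Sham and 4.50 to 50.8 in clamped lungs (log2FC 3.56, or 2.46 without IR 3). Has2 was separated at very low levels, with at most 0.0628 FPKM in Sham and 0.126 to 2.14 in clamped lungs. In Gfpt2 and Has2 all IR libraries lay above all I-post C libraries. Of 23 tested ADAMTS, MMP and TIMP genes, 5 were higher without overlap and the median was 0.51. Adamts1 and Adamts4, proteases that cut the proteoglycans versican and aggrecan, lay just outside the threshold. Adamts1 measured 14.3, 17.3 and 8.87 FPKM in Sham, 71.1, 60.4 and 107 in IR and 105, 86.0 and 42.9 in I-post C. Adamts4 measured 0.173, 0.0748 and 0.116 FPKM in Sham, 1.04, 4.27 and 5.66 in IR and 3.22, 1.94 and 1.83 in I-post C. Both lay clear of Sham in each clamped library, Adamts4 from a Sham level of at most 0.173 FPKM. Adamts9 (log2FC 1.16), the neutrophil collagenase Mmp8 (log2FC 3.50) and Tfpi2, an inhibitor of plasmin and matrix proteases (log2FC 4.13), were the others.

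Coagulation and fibrinolysis genes had 6 of 22 tested members higher without overlap, 0 lower and a median log2FC of 0.66, or 0.31 without Sham 3 and IR 3. On the clotting side, F3, tissue factor that starts the extrinsic cascade, measured 50.7, 63.7 and 61.2 FPKM in Sham, 278, 181 and 194 in IR and 216, 138 and 79.5 in I-post C (log2FC 1.62). On the opposing side, Plat, tissue plasminogen activator, measured 54.7 to 72.7 FPKM in Sham and 102 to 206 in clamped lungs, and Procr, the endothelial protein C receptor, measured 11.1 to 17.5 in Sham and 21.4 to 88.0 in clamped lungs. F3, Plat and Procr were each above Sham in every clamped library. Plaur, the urokinase receptor, and Thbs1, thrombospondin-1, had log2FCs of 1.43 and 2.75. Serpinb2, a serpin that inhibits urokinase, measured 0 FPKM in Sham 1 and Sham 3 and 0.0954 in Sham 2, against 0.253 to 12.0 in clamped lungs, so its fitted fold rests on almost no reads in Sham and is not given. Thbd, which encodes thrombomodulin, overlapped at 183 to 247 FPKM in Sham and 158 to 324 in clamped lungs.

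Vascular and lipid mediator lists had medians from -0.01 to 0.20. Members higher without overlap made up 15% of prostaglandin and leukotriene genes and 7.69% of vasomotor genes. They made up 13.3% of endothelial activation genes and 4.35% of endothelial barrier genes, against 1.42% of all genes tested. Of 20 tested prostaglandin and leukotriene genes, 3 were higher without overlap and the median log2FC was -0.01. Ptgs2, the inducible cyclooxygenase, measured 1.51, 0.998 and 0.401 FPKM in Sham, 6.05, 13.8 and 16.5 in IR and 3.17, 1.53 and 2.27 in I-post C, so I-post C 2 came within 0.1 FPKM of the highest Sham library. Ptges, a prostaglandin E2 synthase, and Ptger4, a receptor for that prostaglandin, were the others. The log2FC of Ptger4 was 1.03, or 0.79 without Sham 3. Of 26 tested vasomotor genes, Edn1 and the inducible nitric oxide synthase Nos2 were without overlap (Nos2 0.280 to 0.443 FPKM in Sham, 1.17 to 3.43 in clamped lungs, edgeR adjusted p = 0.0616), with a list median of 0.19. Of 15 tested endothelial activation genes, Apold1 and Selp were without overlap, with a median of 0.20. Apold1, an immediate-early gene of endothelial cells, measured 1.69, 3.04 and 1.81 FPKM in Sham, 134, 65.8 and 94.8 in IR and 72.7, 41.8 and 10.5 in I-post C, a log2FC of 5.00 (SE 0.79, edgeR adjusted p = 0.0616). Its clamped libraries lay far from Sham, with I-post C 3 nearest. The adhesion molecule Icam1 was level, at 156 to 176 FPKM in Sham and 91.4 to 226 in clamped lungs (log2FC 0.00, SE 0.25). Of 23 endothelial barrier genes only Sphk1, which makes sphingosine 1-phosphate, was without overlap, and endothelial marker genes had a median log2FC of 0.00.

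Genes induced by glucocorticoids and genes of the circadian clock overlapped in their members. Of 18 tested glucocorticoid-induced genes, 6 were higher without overlap (Per1, Dusp1, Errfi1, Mt1, Mt2A and the DEG Depp1), with a median log2FC of 0.78. The log2FC was above 0 in 14 of the 18 and below 0 in 4. Those 4 were Cebpd (-3.10, SE 1.04), Sult1a1 (-0.79), Klf15 (-0.47) and Ddit4 (-0.03), and each overlapped between Sham and clamped lungs. Cebpd had means of 56.8 FPKM in Sham and 7.01 in clamped lungs, and DESeq2 gave it no adjusted p. Because of the overlap, its fold does not hold for every Sham library. Fkbp5 (0.67), Zbtb16 (0.13) and Tsc22d3 (0.12) overlapped between Sham and clamped lungs. Whether glucocorticoids had a part in these values was not tested. Per1, a clock repressor that glucocorticoids also induce, measured 34.3, 16.5 and 35.7 FPKM in Sham, 66.0, 63.8 and 72.5 in IR and 110, 93.2 and 44.1 in I-post C. The metallothionein Mt2A, which binds zinc and copper, measured 3.71, 9.91 and 8.32 FPKM in Sham, 120, 340 and 657 in IR and 70.3, 44.2 and 380 in I-post C, and its relative Mt1, which shares much of its sequence, measured 0.790 to 4.38 in Sham and 5.21 to 80.0 in clamped lungs. The clamped libraries with the highest Mt2A and Mt1 were IR 3, I-post C 3 and IR 2. Of 19 tested clock genes, 4 were without overlap (Per1, Rora, Nfil3 and Bhlhe40) and the median was 0.85, or 0.54 without Sham 3 and IR 3. Nfil3, a repressor of D-box genes, measured 6.39, 8.09 and 7.77 FPKM in Sham, 33.1, 30.5 and 31.2 in IR and 39.1, 38.2 and 12.8 in I-post C (log2FC 2.04, edgeR adjusted p = 0.0616). The clock time at which each lung was taken is not stated, and its part in these values was not tested.

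Hypoxia targets had 2 members higher without overlap (8.33% of those tested, against 1.42% of all genes tested). Of 24 tested, Pfkfb3 passed the test, Hk2, a hexokinase, was the other member without overlap (1.19 to 3.04 FPKM in Sham, 3.22 to 7.27 in clamped lungs), and the median log2FC was 0.20, with 17 of the 24 above 0. Vegfa, a classical target of hypoxia-inducible factor, measured 219 to 302 FPKM in Sham and 208 to 319 in clamped lungs (log2FC 0.09, SE 0.14). Of 17 tested glycolytic enzymes, Hk2 was the only one without overlap, with a median of 0.11. Amino acid carriers Slc7a1 and Slc7a5 were the 2 of 19 integrated stress response genes without overlap, at log2FCs of 1.76 and 1.66. Ifit1 and Ifit3 were the 2 of 28 interferon-induced genes without overlap, and that list had a median of 0.03. In cell death genes, Tnfrsf12a, the receptor for TWEAK, was the 1 of 26 (7.89 to 16.1 FPKM in Sham, 19.3 to 55.5 in clamped lungs). The lists of 20 heat shock genes (median -0.13), 18 tight junction genes (-0.13), 15 alveolar fluid clearance genes (0.12), 19 fatty acid oxidation genes (-0.02), 19 transcripts of proliferating cells (0.23), 8 EGF family genes (0.50) and 6 GIMAP GTPases (-0.56) had 0 members without overlap and a log2FC of 1 or more in size. In the EGF family, Areg had means of 4.45 FPKM in Sham and 29.0 in clamped lungs (log2FC 2.64, edgeR adjusted p = 0.197). Ereg had means of 0.850 and 5.36 (log2FC 2.71, edgeR adjusted p = 0.269). Both overlapped Sham, and DESeq2 called these 2 of the 8 higher, against 1.4% of all genes. DESeq2 also called 2 of the 18 tight junction genes and 1 of the 20 heat shock genes lower, against 0.467% of all genes.

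Genes lower in clamped lungs were fewer at this size of difference. Sham 3 was the highest library in 52 of the 77 lower genes without overlap and the lowest in 118 of the 219 higher genes, where Sham 1 and Sham 2 were lowest in 49 and 52. In all, 34 of the 77 kept a log2FC of -1 or less when Sham 3 and IR 3 were left out of the fit, against 189 of the 219 higher genes that kept 1 or more. Cldn15, a claudin that forms cation pores and is found in mesothelium, measured 13.2, 30.6 and 13.8 FPKM in Sham, 3.36, 6.33 and 3.93 in IR and 8.22, 6.38 and 4.10 in I-post C, a log2FC of -1.87 (SE 0.35, edgeR adjusted p = 0.0967). Bnc1, a mesothelial transcription factor, measured 1.19, 2.15 and 0.473 FPKM in Sham, 0.0612, 0.239 and 0.0991 in IR and 0.0693, 0.274 and 0.0229 in I-post C. Neither gene leaned on Sham 3, and Sham 2 was highest in both. The sum of 6 mesothelial markers ran from 436 to 758 FPKM in Sham and from 218 to 530 in clamped lungs, with Sham 2 highest, and the part of the pleural surface in each piece of lung was not tested. Trim13, an endoplasmic reticulum ubiquitin ligase, was even in Sham at 16.5, 16.7 and 16.6 FPKM and measured 4.92, 3.39 and 3.92 in IR and 6.16, 7.91 and 12.3 in I-post C (log2FC -1.39, SE 0.34). Gpx4, the enzyme that reduces lipid peroxides and guards against ferroptosis, measured 37.7, 49.0 and 114 FPKM in Sham, 30.1, 23.2 and 27.9 in IR and 37.1, 37.2 and 25.8 in I-post C. Its groups missed overlapping by less than 1 FPKM, and its log2FC of -1.20 shrank to -0.51 without Sham 3. Prr15, Exph5 and Gjb1 were other lower genes, at log2FCs of -1.17, -1.86 and -1.22, and that of Gjb1 was -0.91 without Sham 3.

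The pooled difference held arms that did not weigh equally. I-post C against IR had 0 DEGs by edgeR (0%), in which 161 genes were higher (1.05%) and 302 lower (1.96%) at an unadjusted p under 0.05, and DESeq2 called 7 higher and 7 lower. Of the 219 higher genes without overlap, 168 (76.7%) were lower in I-post C than in IR, with a median log2FC of -0.40, against 52.4% and -0.01 for all genes tested. These shares come from the fit of TMM-scaled counts, and the next from FPKM. In 30 of the 219 (13.7%) all 3 IR libraries lay above all 3 I-post C libraries, against 2.59% of all genes tested. In 3 (1.37%) the order was the reverse, against 11.2%. I-post C 3 was the lowest clamped library in 91 of the 219 and IR 3 the highest in 71. The arms share the Sham libraries in this choice of genes, and the sign of the difference between arms was not part of it. On means of FPKM, 68% of the 219 and 32.8% of all genes were lower in I-post C than in IR. With each clamped library left out in turn, these shares were 61.6% to 74% of the 219 and 27.5% to 42.5% of all genes. Cxcl1, Gfpt2, Has2 and Ptgs2 had log2FCs of I-post C against IR of -2.22, -2.30, -2.56 and -2.55. The DEGs Pfkfb3 and Tlr2 were close to level between the arms (log2FC 0.00, SE 0.24 and 0.06, SE 0.20), and Depp1 was at -0.60 (SE 0.30). Among the 77 lower genes, 47 were higher in I-post C than in IR, with a median of 0.09, and Trim13 was at 0.98. Fcrl2, an Fc receptor-like gene on the B cell list, ran the other way from most higher genes, at 0.156 to 0.237 FPKM in Sham, 0.273 to 0.902 in IR and 2.94 to 7.00 in I-post C, while the B cell marker sums overlapped (109 to 144 FPKM in Sham, 49.8 to 260 in clamped lungs).

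**Figure D5:**
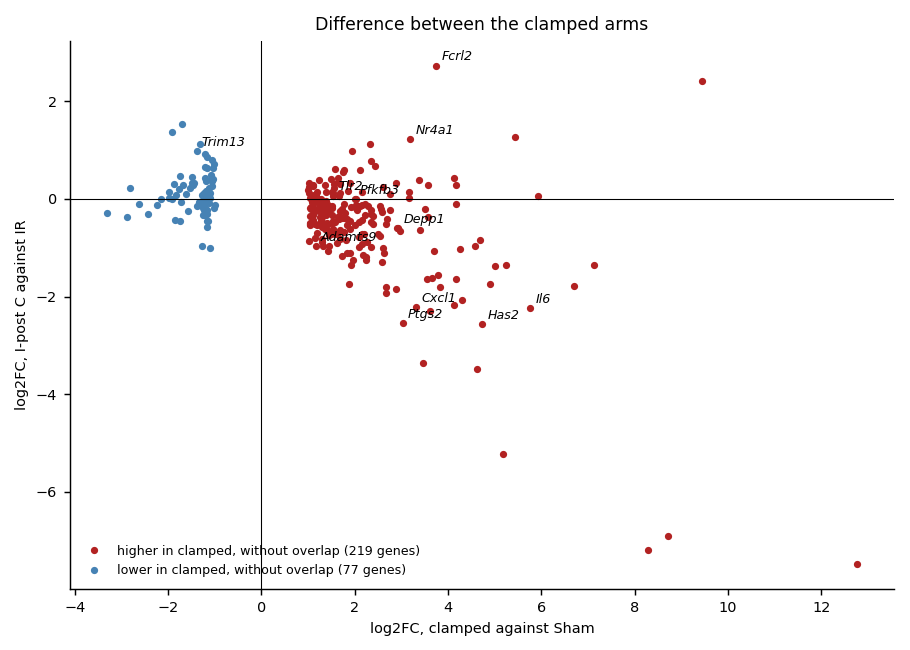
Each point is 1 gene without overlap, with the log2FC of clamped against Sham libraries on the x axis and the log2FC of I-post C against IR on the y axis. Of the 219 red genes, higher in clamped lungs, 168 lie below 0, and Pfkfb3 and Tlr2 lie near 0.

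A set of genes lay apart from Sham in IR and not in I-post C, and pooling the arms hid them. Aplnr, the apelin receptor, measured 54.0, 30.7 and 38.0 FPKM in Sham, 18.7, 15.6 and 12.2 in IR and 44.3, 38.9 and 44.6 in I-post C, for a pooled log2FC of -0.50. Gimap4, a GTPase of lymphocytes and endothelium, measured 84.0, 43.0 and 44.4 FPKM in Sham, 26.8, 17.7 and 12.7 in IR and 41.2, 49.7 and 67.9 in I-post C, for a pooled log2FC of -0.66. Trim16, a galectin-binding protein of autophagy, measured 1.98, 2.09 and 0.699 FPKM in Sham, 7.65, 5.94 and 6.62 in IR and 2.46, 1.40 and 2.43 in I-post C, for a pooled log2FC of 1.53, or 1.18 without Sham 3. In each of these genes the IR libraries lay outside both other groups, and the I-post C libraries overlapped Sham. Gimap9 and Nrm, at pooled log2FCs of -0.86 and -0.77 (-0.45 for Nrm without Sham 3), had all IR libraries below all Sham libraries as well. These genes were picked because the study names them from these samples, so they are a description of the pooled contrast and not independent evidence of an effect.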

How the data were processed

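Lung RNA of 9 rats (3 Sham, 3 IR, 3 I-post C) was sequenced as paired reads after poly(A) selection. The authors trimmed reads with Cutadapt, mapped them with HISAT2 and assembled transcripts with StringTie. The submitters' processing notes give Cutadapt 1.9, HISAT2 2.2.1, StringTie 2.1.6 and the rn6 build, and the methods name another StringTie version. The FPKM values were deposited by the authors and come from StringTie and ballgown. The deposited count values are whole numbers per gene, not normalized, and their making and the treatment of multiply mapped reads are not given in the sources used here, so no counting intervals are given. In all, 945 entries share a gene name with another, and a named gene is the entry with the highest mean FPKM.

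Counts of all 9 libraries were tested with edgeR 4.0.16 (R 4.3.3), TMM scaling and clamping as the only term, in genes with a mean of at least 0.5 FPKM. I-post C against IR came from a fit of the 3 groups. Alternatives were DESeq2 1.42.0, limma 3.58.1 on log2(FPKM + 0.5) and at pseudocounts of 0.1 and 1, voom weights, other filters, a replicate block and each library left out. The pipeline was tested on simulated data. Promoters came from RefSeq's GRCr8 table. The samples pooled, the gene lists and the tests were chosen with earlier results of these data known. The rule for named genes took DEGs of largest change or level, members of each list, and genes the study names. Since only 3 DEGs were found, genes without overlap between clamped and Sham libraries were added after their values were seen, as was any other gene named. A gene of the coagulation list is not reported here.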

Additional observations from a re-analysis of the deposited data

Results flagged for a closer look

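Among the 6 clamped libraries, single libraries stood far from the others in 19 of 132 gene levels and marker sums examined, judged by the gap to the nearest library as a share of the whole range. Chance alone flags about 1 in 20 such groups if the values are independent and normally distributed. FPKM values of related genes need not be so, and 17 of the 19 flags were on the high side. IR 3 was the library that stood apart in 12 of the 19. It was the highest for Ccl2 (260 FPKM), Csf3 (17.9), Cxcl6 (11.2), Il6 (74.2), Mt1 (80.0), Ptges (3.29), Selp (18.4), Sphk1 (8.70), Tfpi2 (32.3) and Tnfaip6 (50.8). Without IR 3, the log2FC of clamped against Sham went from 2.79 to 1.39 for Cxcl6, from 3.66 to 2.81 for Mt1, from 2.66 to 1.61 for Ptges, from 1.97 to 1.30 for Selp, from 2.24 to 1.74 for Sphk1 and from 4.13 to 3.02 for Tfpi2. IR 3 was also the highest for the summed markers of cardiomyocytes (319 FPKM) and of skeletal muscle (4413 FPKM).

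I-post C 1 was the highest library for Egr1 (212 FPKM), Nr4a1 (236) and Rgs2 (213). IR 2 was the highest for Pim1 (21.4 FPKM) and IR 1 for Spry4 (37.6). I-post C 3 was the lowest for Nfil3 (12.8 FPKM), and IR 1 was the lowest for the summed red cell markers (5740 FPKM).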

How the results depend on the processing

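The counts of DEGs in the pooled comparison (3 higher, 0 lower) moved with the tool. DESeq2 gave 216 and 72, voom with library weights 28 and 4, and limma 35 and 1 on log2(FPKM + 0.5), 44 and 1 at a pseudocount of 0.1 and 27 and 1 at 1. A filter at a mean of 2 FPKM gave 10 higher and a model of the 3 groups gave 6. Higher genes made up 100% of the edgeR calls on all libraries, 75% of the DESeq2 calls, 87.5% of the voom calls, and 53.9% and 96.2% of the edgeR calls without Sham 1 and without I-post C 3. With each library left out in turn, calls ranged from 0 to 255 higher and from 0 to 218 lower, where the highest counts came without Sham 1 and edgeR called 0 genes without Sham 2, Sham 3, IR 2 or I-post C 1. Without Sham 3 and IR 3 together it called 0. In I-post C against IR, DESeq2 called 7 higher and 7 lower, voom 1 higher, the fit without Sham 3 and IR 3 1 higher, and fits with 1 library left out 0 to 1 higher and 0 lower. The cause of these moves was not tested. Limma on FPKM moved the median over genes for I-post C against IR from -0.01 to 0.11, 0.12 and 0.10 at pseudocounts of 0.5, 0.1 and 1.

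With the replicate number as a block, 0 genes were called higher and 0 lower. The numbers were not taken as pairing the samples, since deviations of same-numbered libraries correlated at -0.269 to 0.452 and those of other pairs at -0.408 to 0.369.

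On library-scaled counts after TMM scaling, 273 genes lay below Sham without overlap and 544 above, against 417 and 416 in FPKM. Of the 77 lower genes, 34 kept a log2FC of -1 or less when it was fitted without Sham 3 and IR 3, an alternative chosen after seeing the data. Junb (log2FC -0.74) reversed to 0.78, 0.87 and 0.68 under limma at pseudocounts of 0.5, 0.1 and 1, 0.56 under the replicate block, 2.15 under voom, 2.55 without Sham 3 and 2.44 without Sham 3 and IR 3, and ranged from -1.29 to 2.55 with each library left out. Icam1, close to 0, turned positive without Sham 2, I-post C 2 or I-post C 3 and ranged from -0.088 to 0.13 with each library left out, and was -0.10 under voom. No other gene examined under these alternatives changed sign. Some list members named in passing were not examined under them. These are Ier5l, Klf2, Jund, Ier2, Ier5, Cebpd, Sult1a1, Klf15, Ddit4, Fkbp5, Tsc22d3, Zbtb16, Areg and Ereg.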

Other observations

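Red cell genes were higher in most clamped libraries. Hemgn, a nuclear protein of erythroid cells, measured 0.480, 0.125 and 0.381 FPKM in Sham, 1.53, 1.59 and 2.78 in IR and 2.75, 2.80 and 2.83 in I-post C (log2FC 2.87, edgeR adjusted p = 0.0616), and Kel, a red cell surface protein, measured 0.300 to 0.402 in Sham and 0.748 to 3.20 in clamped lungs. The 6 red cell markers in the table summed to 4694 to 12699 FPKM in Sham and 5740 to 21339 in clamped lungs, with IR 1 lowest among clamped libraries. The blood left in each piece of lung was not tested.

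Small nucleolar RNAs had the largest share of genes without overlap among the gene classes compared. Of 199 tested, 15 were higher without overlap (7.54%) and 0 lower, with a median log2FC of 0.50, against 185 of 13778 protein-coding genes (1.34%) and a median of -0.02. They include SNORD25, SNORD27 and SNORD28, which lie in introns of a shared host gene in mammals. The median length of the snoRNAs was 95 bases and they carry no poly(A) tail, which the library preparation selects for, so their levels are uncertain.

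The 2 entries named Rps27a, which encodes a ubiquitin and ribosomal protein fusion, lay on opposite sides. The entry on chromosome 14 ran from 493 to 1006 FPKM in Sham and 187 to 351 in clamped lungs (log2FC -1.71), and the entry on chromosome 5 from 154 to 184 in Sham and 394 to 626 in clamped lungs (log2FC 1.54). Near-identical copies can exchange reads, and both values are uncertain.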
